A study of Mus musculus with 6 samples.

Results

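The genes described here are 34 genes of the peroxisome, chosen by symbol from a list of the organelle's assembly factors and of its enzymes of lipid oxidation. All 34 were found once among the 22488 genes of the count tables, and for all 34 the Entrez identifier gave the same symbol. They comprise 13 Pex genes, which code for peroxins, the proteins that build the organelle, and 21 genes for its enzymes, acyl-CoA transporters and matrix protease. Each of the 34 had counts in all 6 libraries, and each passed the filter on low counts.

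Peroxisomes shorten very long, branched and dicarboxylic acyl chains by beta-oxidation, in which an acyl-CoA oxidase passes electrons to oxygen and makes hydrogen peroxide, which catalase then removes. Hepatocytes are rich in them, and in rodents the nuclear receptor PPAR-alpha, active in fasting, drives many of their beta-oxidation genes together with Pex11a. Matrix enzymes are made in the cytosol, bound by the receptors PEX5 or PEX7, passed through a docking complex in the membrane, and released, after which the receptor is tagged with ubiquitin and drawn back to the cytosol.

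RNA of whole liver came from male wild-type C57BL/6 mice aged 6-8 weeks, on standard chow at 25°C and fasted overnight (16 h). The control group (n = 3) was injected intraperitoneally with 200 µl of HBSS, a salt buffer, per the treatment protocol, while the label field for treatment says that controls had none. The LPS group (n = 3) was given lipopolysaccharide, a bacterial endotoxin, at 6 mg/kg by the same route. No source used here gives the interval between injection and sampling. The sample titles call the libraries of a group repeat experiments. Nothing says that they came from separate mice, so the p-values reflect the spread of these libraries, which may be technical. Libraries held 11488525 to 20282004 counts. Levels are counts per 1000000 counts of the library (CPM), with library sizes scaled by TMM. Changes are log2 fold changes, LPS minus control, with a standard error (SE), and adjusted p-values are edgeR's, over all 12078 genes tested. Genes are said to have risen or fallen where the adjusted p was under 0.05.

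Genes of the peroxisomal enzymes fell in LPS livers, many of them by several fold, while the assembly genes changed mostly by less. The log2 fold change was below 0 in 10 of the 13 Pex genes, against 5973 of all 12078 genes tested. Of the 34 genes, 22 fell and 2 rose, while 62.3% of all genes tested changed in either direction. Of the 21 enzyme and transporter genes, 17 fell, 1 rose and 3 did not pass the threshold, with a median log2 fold change of -1.48. Of the 13 Pex genes, 5 fell, 1 rose and 7 did not pass, with a median of -0.27 (-0.14 without control replicate 1). Among all genes tested, 31.0% fell, 31.3% rose and the median was 0.01. The share of enzyme genes that fell was 81% and that of Pex genes 38.5%, the latter near the share among all genes. A fall of at least 2-fold was seen in 11 enzyme genes and 2 Pex genes, against 18.1% of all genes tested. The groups did not overlap in 25 of the 34 genes, against 67.4% of all genes tested. The LPS values lay wholly below the control values in 16 enzyme genes and 6 Pex genes (33.4% of all genes tested), and in Nudt7, Pex16 and Pex19 they lay wholly above.

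**Figure D1:**
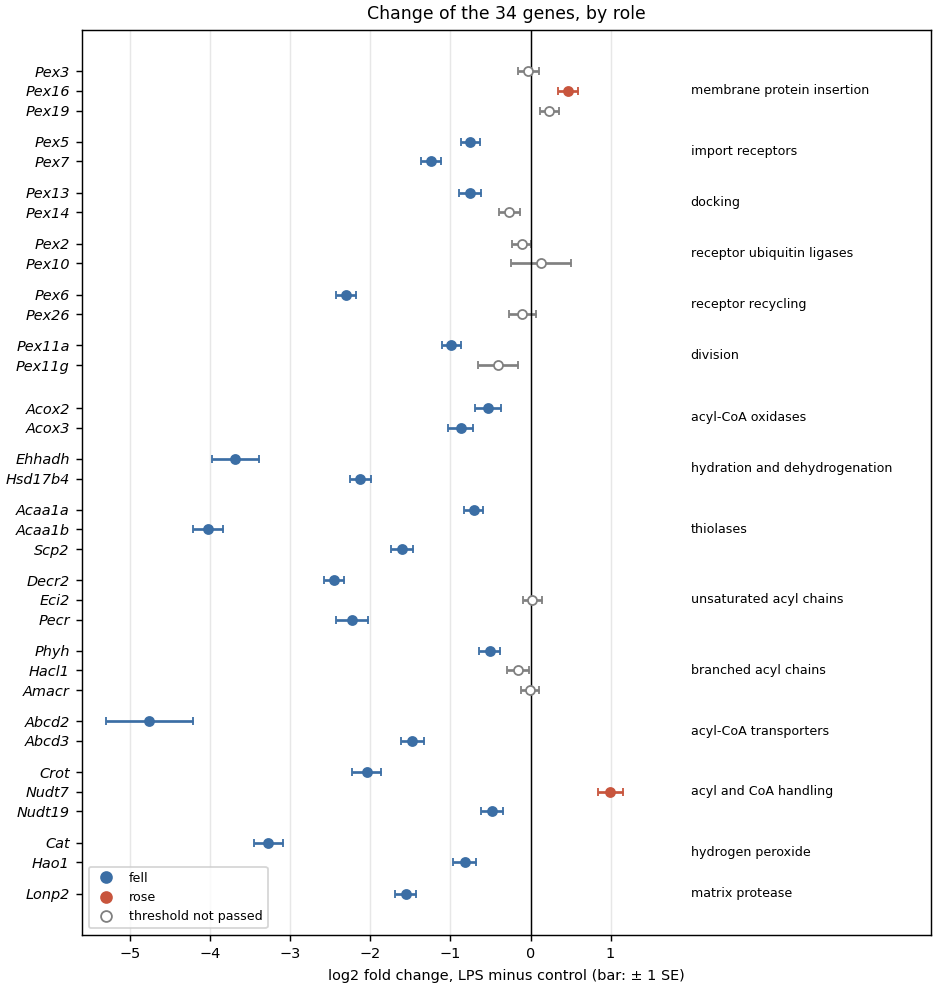
Log2 fold change (LPS minus control, horizontal axis) of each of the 34 genes, grouped by role, with bars of 1 SE and n = 3 libraries per group. Filled blue points fell, filled red points rose and open grey points did not pass the threshold. Abcd2 lies farthest left at -4.76 and Nudt7 farthest right at 1.00.

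Summed over the 13 Pex genes, the level was 1087, 1078 and 1121 CPM in control replicates 1, 2 and 3 and 828, 824 and 854 CPM in LPS replicates 1, 2 and 3. The LPS mean was 76.3% of the control mean. Summed over the 21 enzyme genes, the level was 19944, 26368 and 25893 CPM in the controls and 5479, 5850 and 6582 CPM in LPS livers, 24.8% of the control mean. Neither sum overlapped between the groups. The most abundant genes weigh heavily in the enzyme sum: without Ehhadh, Scp2 and Acaa1b, the 3 most abundant in controls, the LPS sum stood at 40.2% of control.

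PEX3, PEX16 and PEX19 place proteins into the peroxisomal membrane, PEX19 as the soluble chaperone and PEX3 and PEX16 as its partners in the membrane. Pex16 (chromosome 2, 92374676 to 92381217) was the 1 Pex gene that rose, from 155, 123 and 127 CPM in control replicates 1, 2 and 3 to 191, 187 and 182 CPM in LPS replicates 1, 2 and 3. All LPS values lay above all control values, and the log2 fold change was 0.46 (SE 0.13, adjusted p = 0.00551). Pex19 read 161, 168 and 181 CPM in controls and 189, 194 and 216 CPM in LPS livers. Its groups did not overlap either, yet its change of 0.23 (SE 0.12) did not pass the threshold (adjusted p = 0.102). Pex3 had a log2 fold change of -0.03 (SE 0.13).

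Both import receptor genes fell. PEX7 carries the few enzymes that bear an N-terminal signal, and Pex7 (chromosome 10, 19853900 to 19907689) read 49.0, 50.3 and 49.5 CPM in controls and 21.3, 18.6 and 23.0 CPM in LPS livers. The control values of Pex7 were nearly equal and the LPS values lay well below them (log2 fold change -1.24, SE 0.13, adjusted p = 1.53e-06). PEX5 binds the C-terminal signal that most matrix enzymes carry. Pex5 read 157, 144 and 160 CPM in controls and 88.0, 87.1 and 98.1 CPM in LPS livers, a log2 fold change of -0.75 (SE 0.12). The log2 ratio of Pex5 to Pex7 counts was 1.68, 1.52 and 1.69 in controls and 2.04, 2.22 and 2.09 in LPS livers, so Pex7 was lower relative to Pex5 in every LPS library.

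PEX13 and PEX14 form the docking complex. Pex13 fell from 75.6, 102 and 90.9 CPM to 50.4, 54.6 and 54.3 CPM, without overlap (-0.75, SE 0.13, adjusted p = 2.32e-04). The change of Pex14 was -0.27 (SE 0.13, adjusted p = 0.0882). Its groups did not overlap, and it passed the threshold without LPS replicate 3 (-0.35) or with library totals as the only scaling (-0.34), while without LPS replicate 2 it stood at -0.18 (adjusted p = 0.306). Exons of Pex14 share 1776 bases with a gene annotated on the opposite strand.

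PEX2 and PEX10 are ubiquitin ligases that tag the receptor for recycling. Pex2 read 43.8, 47.1 and 45.2 CPM in controls and 44.0, 41.9 and 40.1 CPM in LPS livers, overlapping (-0.11, SE 0.12). Pex10 was the least expressed Pex gene, with 55, 56 and 64 counts in controls and 54, 28 and 78 in LPS livers, that is 4.29, 2.72 and 4.10 against 4.61, 1.97 and 5.56 CPM. Its LPS values spanned the control values, and its change of 0.13 had the widest error of the Pex genes (SE 0.37). With an error this wide a change of Pex10 could have been missed, and even a change larger than the error need not pass the threshold.

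PEX6 is an ATPase that pulls the tagged receptor out of the membrane, where PEX26 anchors it. Pex6 (chromosome 17, 46711463 to 46725541) changed most of the Pex genes. It read 118, 101 and 119 CPM in controls and 23.2, 22.2 and 23.0 CPM in LPS livers, a 4.93-fold lower mean (log2 fold change -2.30, SE 0.13, adjusted p = 3.24e-09). The 3 LPS values differed by about 1 CPM and lay far below the lowest control. Its anchor Pex26 did not pass the threshold (-0.10, SE 0.17).

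PEX11 proteins elongate the membrane when peroxisomes divide, and Pex11a is the form that fasting and PPAR-alpha agonists induce in rodent liver. Pex11a (chromosome 7, 79735957 to 79743131) read 195, 229 and 222 CPM in controls and 115, 109 and 102 CPM in LPS livers (-0.99, SE 0.12, adjusted p = 9.12e-06). The groups did not overlap. Per kilobase of annotated exons, Pex16 and Pex11a had the highest control levels of the Pex genes (76.1 and 67.8 CPM per kb), and in LPS livers Pex16 stood at 105 and Pex11a at 34.2 CPM per kb. Pex11g read 20.0, 8.51 and 14.2 CPM in controls and 10.7, 11.0 and 10.3 CPM in LPS livers, overlapping (-0.40, SE 0.25, adjusted p = 0.181). The lowest control was replicate 2, and without that library Pex11g passed the threshold at -0.70 (adjusted p = 0.0102), while without control replicate 1, the highest, it stood at -0.090 (adjusted p = 0.763). Exons of Pex11g share 1396 bases with a gene annotated on the opposite strand.

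**Figure D2:**
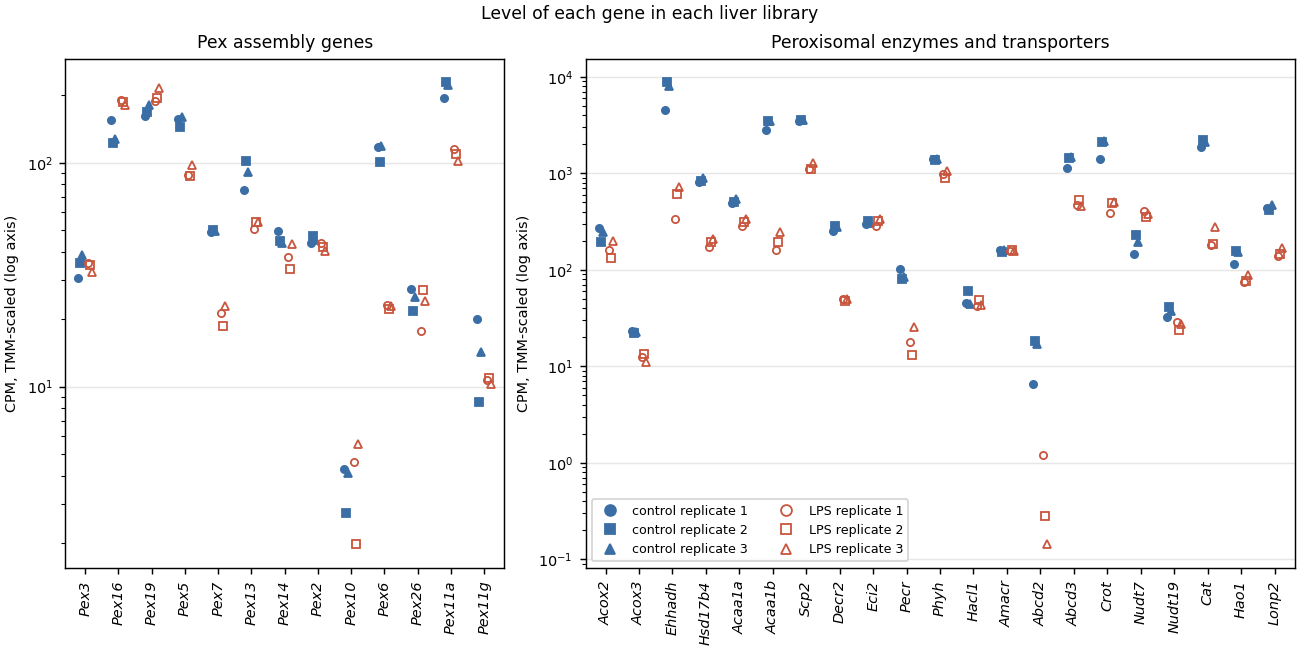
Level of each of the 34 genes in each library, in CPM on a log axis, with Pex genes on the left and enzymes and transporters on the right. Filled blue symbols are controls and open red symbols LPS livers, with a symbol shape for each replicate. The groups separate widely for Pex6, Ehhadh, Acaa1b and Cat and overlap for Pex2, Eci2 and Amacr.

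Acyl-CoA oxidases take the first step of beta-oxidation. ACOX2 acts on branched chains and bile acid intermediates, and Acox2 read 272, 193 and 247 CPM in controls and 162, 131 and 199 CPM in LPS livers. LPS replicate 3 lay above control replicate 2, so the groups overlapped. The fall of Acox2 (-0.53, SE 0.17, adjusted p = 0.0128) did not pass without control replicate 1 (-0.43) or without LPS replicate 2 (-0.39). Acox3 fell from 23.2, 21.9 and 22.6 to 12.6, 13.3 and 11.0 CPM without overlap (-0.87, SE 0.15).

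The middle steps are carried by bifunctional enzymes. EHHADH handles straight and dicarboxylic chains and HSD17B4 mainly branched chains. Ehhadh (chromosome 16, 21761287 to 21787807) read 4578, 8816 and 8147 CPM in controls and 337, 607 and 729 CPM in LPS livers. Replicate 1 was the lowest in each group, and even so the lowest control stood several fold above the highest LPS value. The LPS mean was 12.9-fold lower (log2 fold change -3.69, SE 0.30, adjusted p = 1.53e-07). Per kilobase of annotated exons, Ehhadh had the highest control level of the 34 genes (2409 CPM per kb), and in LPS livers Phyh did (518 CPM per kb, against 187 for Ehhadh). Hsd17b4 fell from 807, 827 and 888 to 173, 195 and 209 CPM (-2.13, SE 0.13). The log2 ratio of Ehhadh to Hsd17b4 counts was 2.50, 3.41 and 3.20 in controls and 0.96, 1.64 and 1.80 in LPS livers, lower in every LPS library than in every control.

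Thiolases release the shortened chain. The mouse has 2 copies of the straight-chain thiolase, Acaa1a (chromosome 9, 119339676 to 119350299, plus strand) and Acaa1b (chromosome 9, 119148023 to 119157093, minus strand). Acaa1b read 2815, 3487 and 3522 CPM in controls and 161, 193 and 247 CPM in LPS livers, a 16.3-fold lower mean (-4.03, SE 0.19, adjusted p = 8.10e-10). Acaa1a read 493, 505 and 539 CPM in controls and 285, 313 and 341 CPM in LPS livers (-0.71, SE 0.12). The balance of reads between the copies turned over. The log2 ratio of Acaa1b to Acaa1a counts was 2.51, 2.79 and 2.71 in controls and -0.82, -0.69 and -0.46 in LPS livers, so that Acaa1b gave more reads than Acaa1a in every control library and fewer in every LPS library. Per kilobase of the union of annotated exons (4414 bases for Acaa1a and 1962 for Acaa1b), Acaa1b kept the higher mean. The means of Acaa1b and Acaa1a were 1669 and 116 CPM per kb in controls and 102 and 70.9 in LPS livers. However, the longest protein-coding transcripts are nearly equal in length (1762 bases for Acaa1a and 1689 for Acaa1b). Which copy was higher in LPS livers therefore depends on the length used. The longest protein-coding transcripts of the copies are identical at 93.5% of 1638 aligned bases, and 35.6% of the 50-base words of the Acaa1b transcript also occur in Acaa1a. No source used here says how reads that fit both were counted, so the level of either copy is uncertain. Exons of Acaa1a also share 290 bases with Myd88, and those of Acaa1b 224 bases with Dlec1, each annotated on the opposite strand.

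The 250 bases before the RefSeq starts of these copies are less alike than the transcripts, with 63.4% of 216 aligned bases identical. No such share was computed for other pairs of genes, and whether it bears on the unequal changes of the copies was not tested. The RefSeq start of Acaa1a lies inside the span given above, because GENCODE also has transcripts of Acaa1a that begin farther upstream. The bases nearest the start that no GENCODE exon covers are shown 5′ to 3′ on the strand of the gene, from RefSeq on GRCm38.p6, 250 for Acaa1b and 134 for Acaa1a. Capitals mark the letters CCAAT on either strand (ATTGG on the strand shown), the core of a common promoter element, searched after the sequences were seen. Acaa1b has 2 matches in its 250 bases and Acaa1a has 3, of which 2 lie in the stretch shown. At least 1 match in the window of 300 bases around the start was found in 41.1% of the 27025 genes with a promoter in that table.
Acaa1b, chr9:119157094-119157343, minus strand: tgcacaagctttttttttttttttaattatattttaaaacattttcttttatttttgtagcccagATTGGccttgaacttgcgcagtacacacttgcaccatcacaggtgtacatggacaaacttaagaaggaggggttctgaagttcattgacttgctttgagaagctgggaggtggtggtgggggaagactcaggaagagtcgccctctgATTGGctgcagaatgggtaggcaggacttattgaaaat
Acaa1a, chr9:119341160-119341293, plus strand: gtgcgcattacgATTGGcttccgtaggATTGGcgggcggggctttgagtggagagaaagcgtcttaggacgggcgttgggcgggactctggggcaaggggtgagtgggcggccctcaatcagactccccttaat

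Scp2 codes for the thiolase of branched chains and, from a shorter transcript, for a sterol carrier protein. It read 3508, 3578 and 3595 CPM in controls and 1124, 1106 and 1276 CPM in LPS livers, with little spread within groups (-1.61, SE 0.13, adjusted p = 2.00e-07). Of the 50-base words of its transcript, 41.4% also occur in the annotated pseudogene Scp2-ps2.

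The auxiliary enzymes DECR2, PECR and ECI2 help with unsaturated chains, and their genes did not move together. Decr2, a dienoyl-CoA reductase, read 251, 283 and 275 CPM in controls and 50.2, 47.6 and 49.5 CPM in LPS livers (-2.46, SE 0.12, adjusted p = 1.32e-09). The LPS values were nearly equal and 5.49-fold below control on average. Pecr, a trans-enoyl-CoA reductase, fell by a like size (-2.23, SE 0.20). Eci2, an enoyl-CoA isomerase, read 298, 318 and 308 CPM in controls and 283, 318 and 337 CPM in LPS livers. Its LPS range enclosed the control range, and its log2 fold change was 0.02 (SE 0.12).

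Some branched chains are first cut by alpha-oxidation, in which PHYH hydroxylates phytanoyl-CoA and HACL1 cleaves the product. AMACR turns the methyl branch so that beta-oxidation can go on. Phyh fell modestly, from 1405, 1390 and 1402 CPM to 993, 888 and 1060 CPM, without overlap (-0.51, SE 0.13, adjusted p = 0.00324). Hacl1 (-0.15, SE 0.14) and Amacr did not pass the threshold. Amacr stood at 157.7 ± 5.16 CPM in controls and 157.4 ± 2.14 CPM in LPS livers (SD, n = 3 each), a change of under 0.01 on the log2 scale with an SE of 0.11. Exons of Hacl1 share 1540 bases with a gene annotated on the same strand, so its level is uncertain.

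ABCD transporters carry acyl-CoA into the organelle. Abcd3 (chromosome 3, 121758774 to 121815302), which imports branched and dicarboxylic chains, read 1133, 1454 and 1488 CPM in controls and 467, 534 and 463 CPM in LPS livers (-1.48, SE 0.15). Abcd2 (chromosome 15, 91145871 to 91191799) was much less expressed per kilobase of exons (2.34 CPM per kb in controls, against 206 for Abcd3), and had the largest fall of the 34. Its counts were 85, 376 and 263 in controls and 14, 4 and 2 in LPS livers, that is 6.63, 18.3 and 16.9 against 1.19, 0.281 and 0.143 CPM. The log2 fold change was -4.76 (SE 0.54, adjusted p = 4.31e-06), and -6.01 without LPS replicate 1, which held most of the LPS counts.

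CROT, carnitine octanoyltransferase, hands shortened chains on to mitochondria, and NUDT7 and NUDT19 split peroxisomal coenzyme A and its esters. Crot fell from 1414, 2135 and 2174 CPM to 388, 496 and 500 CPM (-2.05, SE 0.18), with replicate 1 the lowest in each group. Nudt7 (chromosome 8, 114133557 to 114154739) was the 1 enzyme gene that rose. It read 146, 228 and 194 CPM in controls and 404, 354 and 376 CPM in LPS livers, and every LPS value exceeded every control value (1.00, SE 0.16, adjusted p = 8.07e-05). Nudt19 moved the other way (-0.48, SE 0.14, adjusted p = 0.00744), and exons of Nudt19 share 938 bases with a gene annotated on the opposite strand. The log2 ratio of Nudt7 to Nudt19 counts was 2.16, 2.46 and 2.36 in controls and 3.80, 3.90 and 3.77 in LPS livers.

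Hydrogen peroxide is made by the oxidases and by HAO1, which oxidizes glycolate, and is broken down by catalase. Cat (chromosome 2, 103453849 to 103485160) read 1898, 2205 and 2123 CPM in controls and 182, 185 and 276 CPM in LPS livers, a 9.69-fold lower mean (-3.28, SE 0.18, adjusted p = 3.43e-09). The highest LPS value was LPS replicate 3, still far below the lowest control. Hao1 fell by less (-0.82, SE 0.14), and the log2 ratio of Cat to Hao1 counts went from 4.04, 3.82 and 3.80 in controls to 1.30, 1.25 and 1.64 in LPS livers. Lonp2, the protease of the matrix, fell from 440, 421 and 475 to 139, 146 and 168 CPM (-1.56, SE 0.13).

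Promoter windows of 250 bases before to 50 after the annotated start were found in RefSeq (GRCm38.p6) for 29 of the 34 genes and searched on both strands. The repeat that PPAR and its partner RXR bind, AGGTCA and AGGTCA with any 1 base between them, occurred in 0 of the 29 and in 0.0481% of all genes in the table. A looser form with AGGNCA for each AGGTCA, N being any base, includes all matches of the former and occurred in 0 of the 29 and in 0.451% of all genes. The letters GGGA and CCC with any 3 bases between them, which resemble sites of NF-kB, a transcription factor activated by LPS, occurred in 2 of the 29, Cat and Pex13, or 6.9%, against 6.32% of all genes. A match is a description of letters and not a site, and no match says only that the letters are not in this window. The stretch before the start of Cat, among the most reduced of the 34 genes, is shown 5′ to 3′ on the strand of the gene, without the last bases that a GENCODE exon of Cat covers. Capitals mark the match, which begins 116 bases before the RefSeq start. The match near Pex13 lies in an exon of a neighbouring gene and is not shown.
Cat, chr2:103485161-103485403, minus strand: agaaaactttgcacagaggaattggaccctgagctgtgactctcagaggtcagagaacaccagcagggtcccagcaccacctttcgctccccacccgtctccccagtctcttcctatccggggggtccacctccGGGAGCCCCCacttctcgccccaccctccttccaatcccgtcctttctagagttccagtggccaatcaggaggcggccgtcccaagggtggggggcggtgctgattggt

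The make-up of the enzyme reads shifted with the unequal falls. In controls Ehhadh gave 29.8% of the summed CPM of the 21 genes, Scp2 14.8%, Acaa1b 13.6% and Cat 8.62%, and these 4 together gave 66.9%. In LPS livers Scp2 gave 19.6%, Phyh 16.4%, Ehhadh 9.33%, Acaa1b 3.36% and Cat 3.59%. Nudt7 went from 0.787% to 6.33% and Eci2 from 1.28% to 5.23%.

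**Figure D3:**
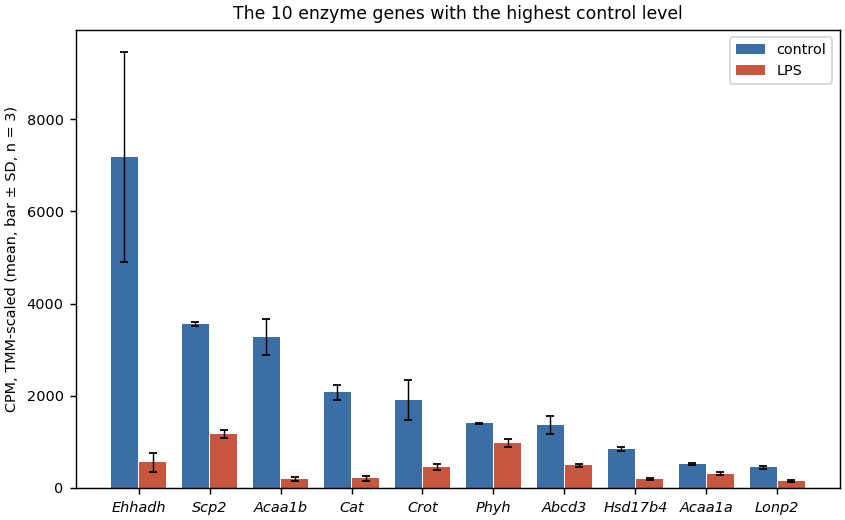
Mean level in CPM of the 10 enzyme and transporter genes with the highest control level, with bars of 1 SD (n = 3 libraries per group), controls in blue and LPS in red, on an axis that starts at 0. Ehhadh, Acaa1b and Cat dropped to a small part of their control level, and Phyh kept 70.1% of it.

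Whether partner genes of the same role changed unequally was compared within each library, free of scaling, for 9 fixed pairs. Not every role gave a pair: Pex13 with Pex14 (docking) and Pex6 with Pex26 (receptor recycling) were not included. Partners need not share a step: HAO1 makes hydrogen peroxide and catalase breaks it down. The 9 pairs were compared with an exact permutation test (2-sided) over the libraries. With 3 libraries against 3 this test cannot give a p under 0.1. The groups did not overlap for 6 pairs, each with an exact p of 0.1 (0.15 after Benjamini-Hochberg adjustment over the 9). These were Pex5 to Pex7, Ehhadh to Hsd17b4, Acaa1b to Acaa1a, Abcd2 to Abcd3, Nudt7 to Nudt19 and Cat to Hao1. How often the groups do not overlap for pairs of other genes was not computed. Among single genes, 67.4% of those tested did not overlap. The shift was -3.48 on the log2 scale for Abcd2 to Abcd3 and -3.33 for Acaa1b to Acaa1a, followed by Cat to Hao1 (-2.49), Ehhadh to Hsd17b4 (-1.57), Nudt7 to Nudt19 (1.5) and Pex5 to Pex7 (0.49). With a library left out, Abcd2 to Abcd3 ran from -4.31 (without LPS replicate 1) to -2.91 (without LPS replicate 3) and Acaa1b to Acaa1a from -3.43 to -3.25, so which of them shifted more depends on the libraries used. The ratios of Pex11a to Pex11g (exact p = 0.4), Acox2 to Acox3 (exact p = 0.4) and Pex2 to Pex10 (exact p = 0.8) overlapped between the groups.

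**Figure D4:**
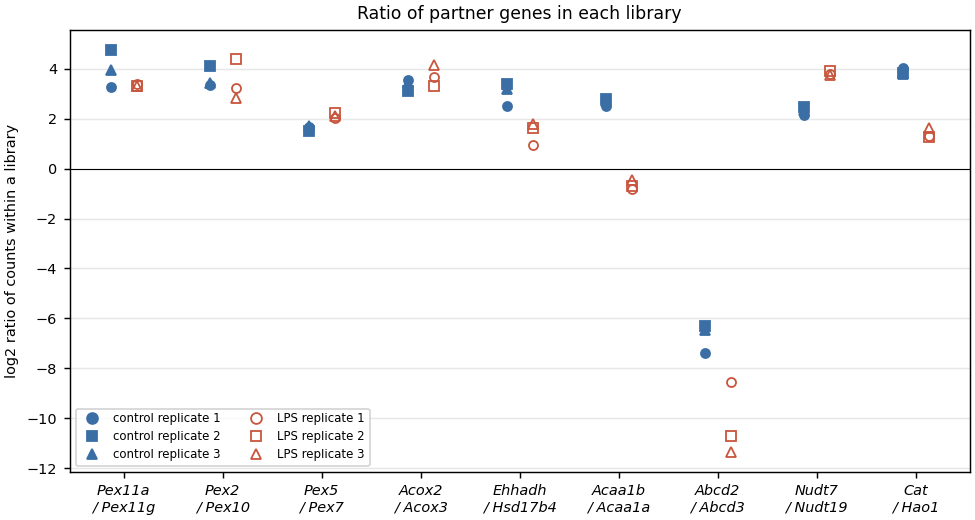
Log2 ratio of the counts of 2 partner genes within each library (vertical axis) for the 9 pairs, controls as filled blue and LPS as open red symbols. Acaa1b to Acaa1a lies above 0 in all 3 controls and below 0 in all 3 LPS libraries, and the LPS libraries spread most for Abcd2 to Abcd3.

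Control replicate 1 stood lower than the other controls in a part of these genes. It was the lowest control for 14 of the 21 enzyme genes and the highest for 5. Among the 13 Pex genes, control replicates 1 and 2 were each the lowest for 6, and replicate 1 was the highest for 5. The gap of replicate 1 was widest for Abcd2 (6.63 CPM against 18.3 and 16.9) and Ehhadh (4578 against 8816 and 8147). It was small for Scp2 (3508 against 3578 and 3595) and Pex7 (49.0 against 50.3 and 49.5). For Phyh replicate 1 was the highest control. In LPS livers, replicate 3 was the highest for 13 of the 21 enzyme genes. Such counts were not computed over all genes. Without control replicate 1 the LPS sum of the enzymes was 22.8% of the control sum, and leaving out any other library gave 23.5% to 26.0%.

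A further 57 genes of the organelle, listed from knowledge of its proteome and not among the 34, were compared the same way. Of the 53 tested, 38 fell (71.7%) and 7 rose, with a median of -1.10, where 31.0% of all genes tested fell and 31.3% rose, and Pex5l, Eci3, Dao and Hao2 did not pass the filter on low counts. Besides Acsl1 (-3.53), a long-chain acyl-CoA synthetase that also sits on mitochondria and the endoplasmic reticulum, the largest falls were in Acbd5 (-3.05) and Acbd4 (-2.63), tethers of peroxisomes to the endoplasmic reticulum, Agxt (-2.83), which detoxifies glyoxylate, Acad11 (-2.72), an acyl-CoA dehydrogenase, and Uox (-2.62), urate oxidase. Acbd5 read 274, 357 and 280 CPM in controls and 40.9, 39.2 and 29.6 CPM in LPS livers. The largest rises were in Acot5 (3.41), an acyl-CoA thioesterase, Xdh (2.72), xanthine dehydrogenase, which is mainly cytosolic, and Far2 (1.69), which makes fatty alcohols for ether lipids. Acot5 rests on 7 control counts and 66 LPS counts, and its change was 2.84 without control replicate 3 and 4.19 without control replicate 1. Of the assembly and division genes in this list, 8 of 14 tested fell, 6 of them at least 2-fold, and 3 rose, with a median of -0.81. Of those of amino acid, hydroxy acid and purine oxidation, 5 of 6 fell and 1 rose.

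Mitochondria run the parallel pathway for long and medium chains, and all 17 of its listed genes fell (31.0% of all genes tested), with a median of -1.39, close to that of the peroxisomal enzymes (-1.48). The spread was narrower, from -2.76 for Eci1, the mitochondrial enoyl-CoA isomerase, to -0.52, against -4.76 to 1.00 for the peroxisomal enzymes. Eci1 fell from 253, 284 and 274 to 40.8, 30.4 and 48.8 CPM, whereas the peroxisomal isomerase Eci2 did not pass the threshold. Acadm, the medium-chain dehydrogenase, had the next largest fall (-2.43). Whether these lists differ was not tested.

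**Figure D5:**
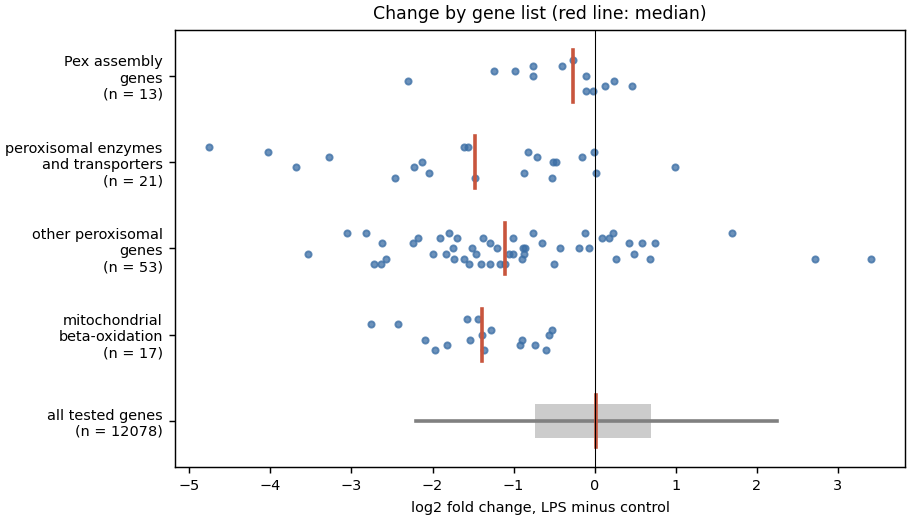
Log2 fold change (LPS minus control) of each tested gene in 4 lists, as points, and of all 12078 genes tested, as a box from the lower to the upper quartile with a line from the 5th to the 95th percentile. Red lines are medians, at -0.27 for Pex genes, -1.48 for peroxisomal enzymes, -1.10 for other peroxisomal genes, -1.39 for mitochondrial beta-oxidation and 0.01 for all genes.

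In whole liver, fewer cells of a type and less RNA per cell cannot be told apart. Beside the counts of markers below, 31.0% of all genes tested fell and 31.3% rose. Of 9 hepatocyte markers found (of 10 listed), 8 fell, with a median of -0.69, and their summed level was 116042 to 129139 CPM in controls and 69513 to 95893 CPM in LPS livers. Divided by that sum, the enzyme level was 17.2%, 20.4% and 22.0% in controls and 7.88%, 7.34% and 6.86% in LPS livers, or 37.0% of control. Alb gave most of the sum (mean 79342 CPM in controls and 54469 in LPS livers). The marker changes ran from -0.04 (Apoa1) to -3.64 (Cps1), so the quotient depends on the markers used. Of 9 Kupffer cell markers 8 fell and 1 rose, with a summed level of 316 to 361 CPM in controls and 76.0 to 123 CPM in LPS livers. Neutrophil markers summed to 4.05 to 7.54 CPM in controls and 149 to 188 CPM in LPS livers, and all 5 tested of 8 rose. Monocyte markers summed to 1.87 to 3.70 and 32.8 to 49.4 CPM, with 3 of 4 tested rising (5 listed), and cholangiocyte markers to 19.4 to 32.3 and 117 to 138 CPM, with 3 of 4 tested rising and 1 falling (5 listed). The sums overlapped between the groups for stellate (229 to 237 and 220 to 265 CPM), sinusoidal endothelial (237 to 261 and 164 to 270 CPM) and T and NK cell markers (1.46 to 4.21 and 3.84 to 5.20 CPM). Of 6 stellate markers 3 fell (Des most, -2.15) and 1 rose (Col3a1, 0.69), and Dcn, which did not pass, gave most of the sum. Of 6 endothelial markers 3 fell (Clec4g most, -3.12) and 1 rose (Lyve1, 1.66). None of the 3 T and NK cell markers tested (6 listed) passed. No marker found was at 0 in a whole group, and the part of these cell types in the results was not tested.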

How the data were processed

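RNA-seq of 6 mouse liver libraries was used, 3 per group, grouped by the sample titles. The authors deposited raw counts per gene, without normalization, in fixed-width lines of symbol, Entrez identifier and count (fields of 8 characters). The submitters' processing notes name bcl2fastq 2.0, HISAT2, StringTie, DESeq2, limma and build mm10, without roles. No source used here gives the counting tool, annotation, strand setting or handling of multiply mapped reads. Exons of 14 of the 34 genes overlap another annotated gene (GENCODE vM21, GRCm38), 2 of them on the same strand, so without strand their reads may be mixed.

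Genes other than the 34 were named by Entrez identifier from RefSeq (20722 of 22488) or kept the deposited symbol (1766). The hepatocyte marker Tf was not matched. Genes were compared in R 4.3.3 with edgeR 4.0.16 (TMM, filterByExpr with minimum count 10 and total 15, quasi-likelihood F test, Benjamini-Hochberg over 12078 genes, threshold 0.05). The biological coefficient of variation was 16.4%. SEs come from the fold change and its F statistic. Alternatives were DESeq2 1.42.0, its size factors, library totals, no filter, a replicate block and leaving out each library. The fit was tested on simulated data. Ratios of partner genes used counts plus 0.5. Levels per kilobase used the union of annotated exons.

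The 34 genes and the lists were chosen with earlier results of these data known. All 34 are named; values per library are given for the most changed and most abundant gene of each role and for genes that rose. Of the other peroxisomal genes, the 3 largest rises and 6 largest falls are named (further genes that the rule names are not reported here), and the 2 largest falls in mitochondrial beta-oxidation. Protein targeting signals were planned and are not analysed here. The libraries of a group differed by more than sampling noise, with a chi-square per degree of freedom of 11.6 to 31.2. No value column was left unused.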

Additional observations from a re-analysis of the deposited data

How the results depend on the processing

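Counts of changed genes among the Pex genes, the peroxisomal enzymes, the other peroxisomal genes and mitochondrial beta-oxidation stayed within 1.5 times under every alternative run. With a library left out, 5 to 6 Pex genes and 16 to 17 enzyme genes fell and 1 of each rose. Of all genes, 3510 to 3615 fell and 3372 to 3635 rose. Of 374 values of the 34 genes under alternatives, 358 kept their direction and side of the threshold, 2 lost the threshold (Acox2), 3 gained it (Pex14 and Pex11g) and 11 changed sign. The changes of sign were all in genes near 0 that never passed: Eci2 (-0.049 with library totals, -0.014 without a filter, and -0.024 to 0.067 with a library left out), Amacr (-0.054 to 0.015), Pex10 (-0.17 to 0.47), Pex3 (-0.11 to 0.034) and Pex26 (-0.23 to 0.030), the last 4 with a library left out. The Pex median ran from -0.35 to -0.14 with a library left out. The cause was not tested. The log2 shift of Pex2 to Pex10 ran from -0.59 to 0.19 with a library left out, and the other 8 kept their sign. The enzyme sum in LPS livers was 24.8% of control. It was 37.0% relative to the hepatocyte marker sum, mostly Alb, and 40.2% without the 3 most abundant genes. Both alternatives were added after seeing the data. The median of all genes ran from -0.05 (library totals) to 0.02.

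The sample titles number both groups 1 to 3. After group means were removed, the correlation of equally numbered libraries was -7.448e-04 for 1, 0.104 for 2 and 0.0352 for 3, and 3 of 6 libraries correlated best with their own number. With the replicate block 5 Pex genes and 17 enzyme genes fell, 1 of each rose, and 7546 of all genes changed, against 7528 without it. Precision is limited by 3 libraries per group, and by depth for Abcd2, Pex10 and Acot5.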
